A study of Homo sapiens with 6 samples.

Results

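Interferon-stimulated genes (ISGs) are switched on when interferon binds its receptor. The 33 genes described here are 33 of the 20007 protein-coding genes of the annotation (GENCODE release 44). They were listed by name as commonly used ISGs, by a rule that uses no measured value, although earlier results of these data were known. All 33 were found by symbol. For each gene the acetylation of histone H3 at lysine 27 (H3K27ac), a mark of active promoters and enhancers, was read from peak lists made by CUT&Tag, in which an antibody guides a transposase to cut DNA beside the mark.

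Kasumi-1 and MV4-11 are 2 lines of human acute myeloid leukemia (AML), the first with the RUNX1-RUNX1T1 fusion and the other with a KMT2A fusion. Each line was studied as NC, which the labels call untreated and the study describes as carrying a control short hairpin RNA, and as sh-ANP32B, carrying a hairpin against ANP32B, an acidic nuclear phosphoprotein that binds histones. Both groups were puromycin-selected stable lines, and which ANP32B hairpin was used is not given in the labels. There was 1 H3K27ac peak list for each line and group, 4 in all, and 2 IgG libraries are not analysed here. Replicates had been merged before peaks were called, so no value below has an error or a test, and each comparison describes these 4 libraries. The lists held 22136 to 24523 peaks on chromosomes 1 to 22, X and Y, over 23 to 33.7 Mb. They give the position and width of each peak but not its height, and the number of reads behind them is unknown. Since the cells were measured in bulk, fewer marked cells and less mark per cell cannot be told apart.

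In the type I pathway, interferon alpha or beta engages the IFNAR1 and IFNAR2 receptor chains, and the kinases JAK1 and TYK2 then phosphorylate signal transducers such as STAT2. STAT2 joins IRF9 in a complex that binds the interferon-stimulated response element (ISRE). Interferon gamma acts on many of its targets through the gamma-activated site (GAS). The induced genes sense and degrade viral RNA, block viral entry and replication, or feed back on the pathway, and many of them keep a low level in resting cells.

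The promoters show the response element beside which the acetylation was measured. RefSeq promoters, from 250 bases before the start to 50 after it (GRCh38.p14), were matched for 24 of the 33 genes. The letters GAAA, any 2 bases and GAAA again, on either strand (TTTC, 2 bases, TTTC on the other), were taken for the ISRE, and TTC, any 3 bases and GAA, which reads the same on both strands, for the GAS. The ISRE letters were in 16 of the 24 promoters (66.7%), against 455 of 14570 promoters of all genes (3.12%). The GAS letters were in 7 (29.2%), against 971 of all genes (6.66%). ISRE and GAS letters overlapped in IFI27, IFITM1 and BST2. A match describes the letters only and is not a binding site.

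The 8 sequences below are the 250 bases before the start, 5′ to 3′ on the strand of the gene, with ISRE letters in capitals. The first 6 are the promoters with these letters at which a peak was present in some libraries and absent in others. The peak was found in both Kasumi-1 libraries and in neither MV4-11 library for ISG15, IFI6, IFITM3, BST2 and IFIT5, and the reverse for IFIT3. ISG20 had a peak in all 4 libraries and IFI27 in none. In IFIT5 the last match runs across the start, so that its last letters lie outside the printed bases. On the plus strand lie the stretches of ISG15 (chr1:1013247-1013496), IFIT5 (chr10:89414318-89414567), IFIT3 (chr10:89327747-89327996), ISG20 (chr15:88638766-88639015) and IFI27 (chr14:94110565-94110814). On the minus strand lie those of IFI6 (chr1:27672193-27672442), IFITM3 (chr11:320861-321110) and BST2 (chr19:17405631-17405880).
ISG15: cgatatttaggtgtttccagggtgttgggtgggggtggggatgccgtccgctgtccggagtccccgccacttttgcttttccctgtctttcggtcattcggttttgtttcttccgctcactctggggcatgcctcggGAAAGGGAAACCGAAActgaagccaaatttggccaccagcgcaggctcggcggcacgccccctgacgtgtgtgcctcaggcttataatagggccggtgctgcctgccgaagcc
IFI6: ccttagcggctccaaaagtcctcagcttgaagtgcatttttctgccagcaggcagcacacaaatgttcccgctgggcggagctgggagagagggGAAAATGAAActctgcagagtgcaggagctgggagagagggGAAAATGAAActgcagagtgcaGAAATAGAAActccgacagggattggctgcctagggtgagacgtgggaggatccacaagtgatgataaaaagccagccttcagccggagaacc
IFITM3: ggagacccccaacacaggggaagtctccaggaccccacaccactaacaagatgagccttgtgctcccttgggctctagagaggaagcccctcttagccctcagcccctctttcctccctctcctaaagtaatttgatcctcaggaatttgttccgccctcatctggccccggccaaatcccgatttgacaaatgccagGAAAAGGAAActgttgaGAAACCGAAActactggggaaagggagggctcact
BST2: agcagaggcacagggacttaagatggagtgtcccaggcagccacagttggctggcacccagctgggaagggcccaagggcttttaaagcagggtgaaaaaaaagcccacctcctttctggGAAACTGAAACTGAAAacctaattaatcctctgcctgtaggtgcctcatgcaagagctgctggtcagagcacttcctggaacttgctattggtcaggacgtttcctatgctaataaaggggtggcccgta
IFIT5: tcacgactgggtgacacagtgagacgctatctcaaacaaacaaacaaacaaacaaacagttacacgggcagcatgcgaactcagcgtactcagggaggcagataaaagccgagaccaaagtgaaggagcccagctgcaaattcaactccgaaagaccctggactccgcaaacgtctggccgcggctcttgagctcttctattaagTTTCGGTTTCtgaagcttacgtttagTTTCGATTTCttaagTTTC
IFIT3: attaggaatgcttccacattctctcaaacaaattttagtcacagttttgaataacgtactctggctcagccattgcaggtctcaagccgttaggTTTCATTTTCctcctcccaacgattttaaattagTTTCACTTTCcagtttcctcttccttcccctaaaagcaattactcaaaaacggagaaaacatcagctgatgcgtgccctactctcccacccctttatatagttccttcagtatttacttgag
ISG20: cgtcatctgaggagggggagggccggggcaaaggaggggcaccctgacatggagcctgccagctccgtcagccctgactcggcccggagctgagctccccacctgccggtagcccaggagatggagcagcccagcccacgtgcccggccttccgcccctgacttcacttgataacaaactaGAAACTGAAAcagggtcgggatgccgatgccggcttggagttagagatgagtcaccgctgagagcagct
IFI27: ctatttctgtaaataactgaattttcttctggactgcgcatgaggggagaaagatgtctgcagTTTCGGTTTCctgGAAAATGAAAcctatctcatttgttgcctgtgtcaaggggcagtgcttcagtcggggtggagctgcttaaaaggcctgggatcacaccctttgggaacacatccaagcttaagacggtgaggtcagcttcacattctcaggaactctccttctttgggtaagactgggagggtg
In ISG15 the letters overlapped each other at positions -113 to -98 relative to the start, under the peak of both Kasumi-1 libraries. IFI6 held 3 separate matches, all under its Kasumi-1 peak. The matches of IFITM3, at -52 to -26, were under no peak, and the peak in its window lay beyond the other end of the gene. Both matches of IFI27 overlapped a GAS match between them. Over the 16 promoters with ISRE letters, the letters lay under a peak in 6 genes in each Kasumi-1 library (37.5%) and in 3 genes in each MV4-11 library (18.8%). For the 455 promoters of all genes with these letters, the shares were 33.2% and 30.3% in the NC and sh-ANP32B libraries of Kasumi-1 and 19.8% and 12.7% in those of MV4-11.

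The promoter window reached 2500 bases up- and downstream of the canonical transcript start, and the measure was the number of bases in it under a peak. It is an extent, not a height. Every window has the same length, but a window can also hold the start of a neighbouring gene, whose peak is then counted for both. By this measure, 17 of the 33 genes were marked at the promoter in each Kasumi-1 library, NC and sh-ANP32B, against 47.7% and 45.3% of all protein-coding genes. In MV4-11 the number was 10 in NC and 9 in sh-ANP32B, against 35.8% and 28.6%. A peak lay over the start itself in 14, 14, 7 and 5 of the 33 genes, in the library order used from here on (NC then sh-ANP32B, for Kasumi-1 and then for MV4-11), against 41.3%, 35.2%, 23.8% and 16.5% of all genes. Summed over the 33 genes, promoter peaks covered 22571 and 23599 bases in Kasumi-1 and 9560 and 6806 bases in MV4-11.

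**Figure D1:**
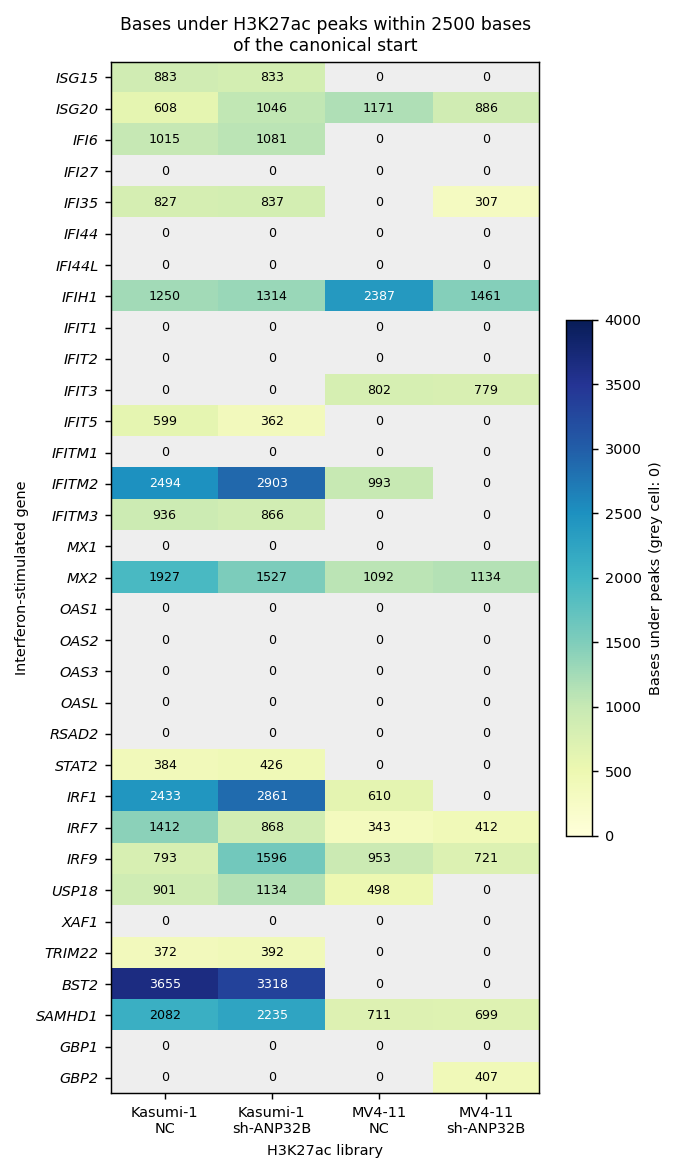
Bases under H3K27ac peaks within 2500 bases of the start for each of the 33 genes (rows) in each of the 4 libraries (columns), with darker cells for more bases. BST2 had the most bases, 3655 in Kasumi-1 NC, and 14 genes had 0 in all 4 libraries.

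The 14 genes with no promoter peak in any library were IFI27, IFI44, IFI44L, IFIT1, IFIT2, IFITM1, MX1, OAS1, OAS2, OAS3, OASL, RSAD2, XAF1 and GBP1, where 50.1% of all genes had none. Among them are the OAS enzymes and MX1, IFIT1 and RSAD2, well-known antiviral effectors. This holds for the canonical start: with every annotated start counted, IFITM1, MX1, RSAD2 and XAF1 had a peak in some or all libraries. At 6 genes, ISG20, IFIH1, MX2, IRF7, IRF9 and SAMHD1, all 4 libraries had a peak, against 25.9% of all genes. Another 7 had a peak in both Kasumi-1 libraries and in neither MV4-11 library, against 9.72% of all genes. IFIT3 alone among the 33 was the reverse, a pattern of 0.565% of all genes.

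Members with a promoter peak had fewer covered bases at the median than all genes with one. The median was 936 (NC) and 1081 (sh-ANP32B) for Kasumi-1, against 1500 and 1522 for all genes with a peak. In MV4-11 it was 877.5 in NC and 721 in sh-ANP32B, against 1046 and 910.

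**Figure D2:**
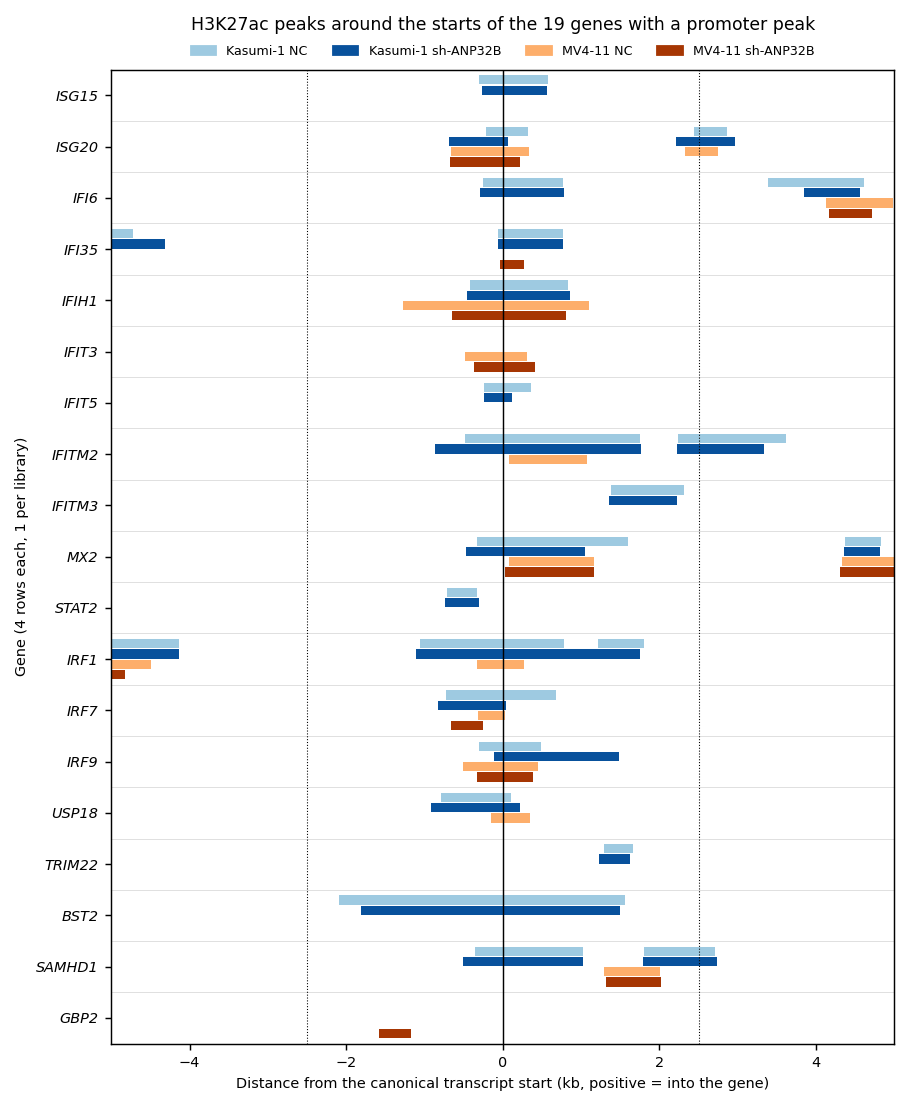
H3K27ac peaks as bars, 1 row and colour per library, against the distance from the canonical transcript start (x axis, kb, positive into the gene) for the 19 members with a promoter peak, with dotted lines at the window's edges. The peaks of ISG15 and IFI6 lay over the start in Kasumi-1, whereas those of TRIM22 and STAT2 lay to one side of it.

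Among the pathway's own transcription factors, IRF9, the DNA-binding partner of STAT2, had 793, 1596, 953 and 721 bases under promoter peaks in the library order. The knockdown library was thus 2.01-fold higher in Kasumi-1 and 1.32-fold lower in MV4-11. The Kasumi-1 peak went from chr14:24160967-24161759 to chr14:24161158-24162753 and so extended further to the right. IRF7, the factor that amplifies interferon production, had 1412, 868, 343 and 412 bases. It was 1.63-fold lower after knockdown in Kasumi-1, where the peak went from chr11:615266-616677 to chr11:615904-616771. In MV4-11 the IRF7 peak covered the start in NC but lay 256 bases from it in sh-ANP32B.

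IRF1, a factor induced by interferon gamma, had 2433, 2861, 610 and 0 bases. Its MV4-11 NC peak, chr5:132490497-132491106, had no counterpart in the knockdown library. STAT2, the signal transducer, had 384 and 426 bases in Kasumi-1 and 0 in both MV4-11 libraries. That Kasumi-1 NC peak lay at -709 to -326 relative to the start and not over it. It was a narrow one, wider than 4.15% of the peaks in its list.

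IFIH1 encodes MDA5, a cytoplasmic sensor of double-stranded RNA, and had 1250, 1314, 2387 and 1461 bases. MV4-11 NC had the most, with a peak at chr2:162317578-162319964 that was wider than 91.1% of the peaks in its list. After knockdown it was 1.63-fold smaller, at chr2:162317871-162319331, and both MV4-11 values stayed above both Kasumi-1 values. USP18, the protease that removes ISG15 from proteins and damps receptor signaling, had 901, 1134, 498 and 0 bases. The peak missing from MV4-11 sh-ANP32B was chr22:18150024-18150521 in MV4-11 NC.

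ISG15, a ubiquitin-like protein that is attached to other proteins, had 883, 833, 0 and 0 bases. IFI6, a mitochondrial and endoplasmic reticulum protein, had 1015, 1081, 0 and 0. IFI35, an interferon-induced leucine zipper protein, had 827, 837, 0 and 307. Its peak in MV4-11 sh-ANP32B, chr17:43006747-43007053, was a narrow one, wider than 5.04% of the peaks in that list.

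Among enzymes and restriction factors, ISG20, an RNA exonuclease, had 608, 1046, 1171 and 886 bases and was 1.72-fold higher after knockdown in Kasumi-1. SAMHD1, which hydrolyses deoxynucleotides, had 2082, 2235, 711 and 699. Each of its values after knockdown was close to NC of the same line, and both Kasumi-1 values were above both MV4-11 values. In MV4-11 its peak lay inside the gene and the start was not covered. BST2, also called tetherin, which holds budding virions at the cell surface, had 3655, 3318, 0 and 0. Its Kasumi-1 NC peak, chr19:17404069-17407723, was wider than 94.4% of the peaks in the list and reached over the start, although the promoter held few CG dinucleotides. TRIM22, a ubiquitin ligase, had 372, 392, 0 and 0, from an intronic peak 1292 to 1663 bases into the gene in Kasumi-1 NC. That peak was wider than 2.44% of the peaks in its list. GBP2, a guanylate-binding GTPase, had 0, 0, 0 and 407, and GBP1 had 0 in all 4 libraries.

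In the IFITM family, membrane proteins that block viral fusion, IFITM2 had 2494, 2903, 993 and 0 bases. IFITM3 had 936, 866, 0 and 0, and its peak lay 1376 to 2311 bases downstream of the start in Kasumi-1 NC, past the end of the gene. IFITM1 had no peak in its window, but the nearest one was 2611 and 2894 bases from its start in Kasumi-1 NC and sh-ANP32B. Counted around every annotated start of IFITM1, the values were 3404, 3147, 993 and 0 bases, from peaks also counted for IFITM2. The 3 genes are near-identical in parts, so reads between them can be placed uncertainly. Over the whole IFITM cluster, chr11:298655-334475, peaks covered 6200, 6083, 1786 and 356 bases, in 4, 4, 2 and 1 peaks.

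The IFIT genes encode proteins that bind foreign RNA ends. IFIT5 had 599 and 362 bases in Kasumi-1 and none in MV4-11, whereas IFIT3 had none in Kasumi-1 and 802 and 779 bases in MV4-11. The IFIT3 peak, chr10:89327509-89328310 in MV4-11 NC, lay over the start and over both sets of ISRE letters. IFIT1 and IFIT2 had 0 promoter bases throughout. Over the whole annotated IFIT2 gene with 5 kb to each side, the values were 0, 0, 1141 and 735 bases, from a peak upstream of the canonical start.

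**Figure D3:**
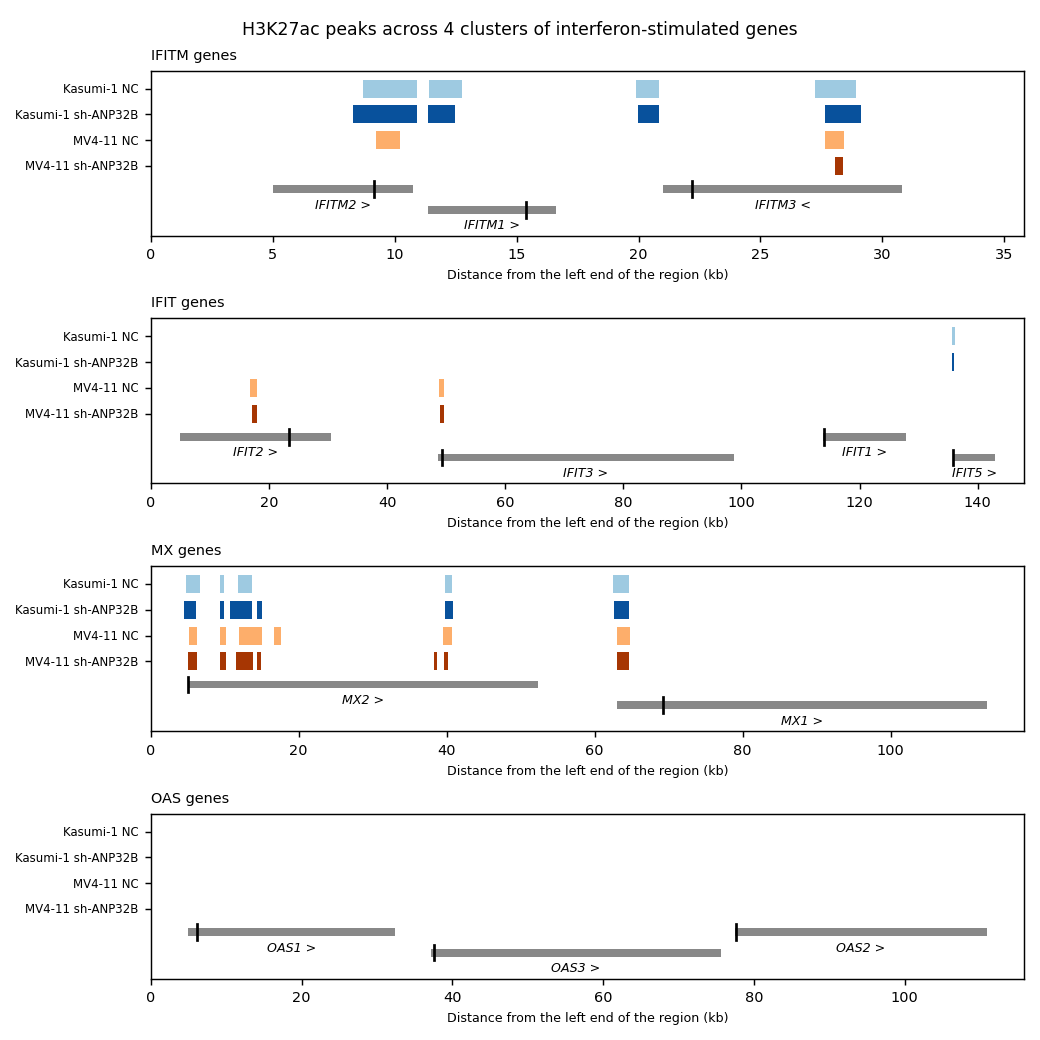
H3K27ac peaks (coloured bars, 1 row per library) across the IFITM, IFIT, MX and OAS genes, against distance from the left end of each region (x axis, kb), with genes as grey bars, an arrowhead for their strand and a black tick at the canonical start. The OAS region had no peak in any library, and the IFITM region had 4 peaks in each Kasumi-1 library and 1 after knockdown in MV4-11.

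The OAS genes, whose products activate RNase L on sensing double-stranded RNA, lay far from any peak. The span of OAS1, OAS3 and OAS2, chr12:112900856-113016723, had 0 bases under peaks in all 4 libraries. The nearest peak was 69205 to 235056 bases from the start of OAS1 and 62349 to 163499 bases from that of OAS2, depending on the library. For OASL, a relative without that enzyme activity, the distance was 56306 to 90365 bases. The span of IFI44L and IFI44, chr1:78614902-78669078, was likewise without a peak, and the nearest one was 143953 to 640095 bases from the start of IFI44L.

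MX1 and MX2 are dynamin-like GTPases that block virus replication. MX2 had 1927, 1527, 1092 and 1134 promoter bases, and with its introns and 5 kb to each side 5420, 6710, 7203 and 5726. The MV4-11 NC peak inside its introns at chr21:41368920-41372049 was wider than 95.4% of the list. MX1 had 0 at its canonical start. At a RefSeq start 5681 bases upstream, whose promoter holds ISRE letters, it had 2160, 2073, 1821 and 1594 bases. Another RefSeq start, 5811 bases downstream of the canonical one and also with ISRE letters in its promoter, had 0 bases in every library. The absence of a peak at MX1 thus holds for the canonical and the downstream start and not for the upstream one.

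RSAD2 encodes viperin, which makes a chain-terminating nucleotide. Its canonical start had no peak, but a RefSeq start 11892 bases upstream, beside the start of CMPK2, the neighbouring induced nucleotide kinase, had 1437, 648, 913 and 0 bases. XAF1, a pro-apoptotic protein, had 0, 292, 449 and 449 bases at a RefSeq start 599 bases upstream of its canonical start. The nearest peak was 18405 to 132282 bases from the canonical start of IFI27, 21703 to 64313 from IFIT1 and 42568 to 71907 from GBP1.

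The promoters of these genes also held few CG dinucleotides. Over the 24 matched promoters of 300 bases the median was 7.5 CG, against 24 for all genes. The 13 with a promoter peak in at least 1 library had a median of 12 CG and 55.7% GC, and the 11 with none had 4 CG and 47.7% GC. For all genes the medians were 28 CG and 66.3% GC with a peak and 14 CG and 60% GC without. The part of base composition in which members had a peak was not tested. Of the 16 members with ISRE letters, 7 had a promoter peak in each Kasumi-1 library and 3 in each MV4-11 library, and of the 8 without the letters 5 and 3. Of all genes with the letters, 41.3%, 40.9%, 31.6% and 27.3% had a promoter peak, in the library order. Of all genes with a matched promoter, with or without the letters, 50%, 47.5%, 37.3% and 30% had one.

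**Figure D4:**
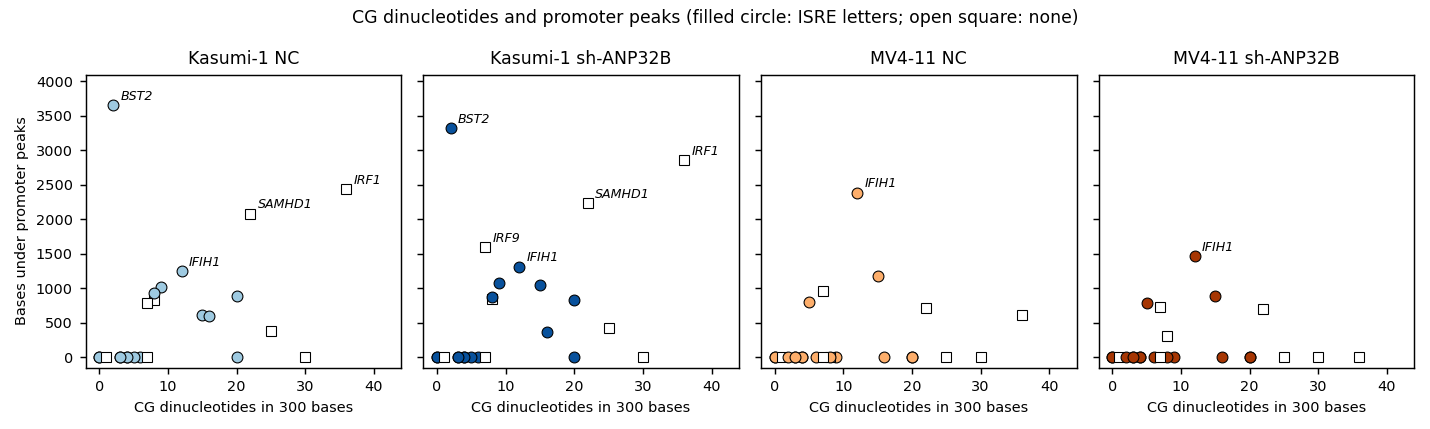
CG dinucleotides in the 300-base RefSeq promoter (x axis) against bases under promoter peaks (y axis) for the 24 matched members, with 1 panel per library, filled circles for promoters with ISRE letters and open squares for those without. BST2, with 2 CG, had the most bases in both Kasumi-1 panels and 0 in both MV4-11 panels.

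In Kasumi-1 the NC and knockdown libraries had promoter peaks at the same members. Among the 17 members with a promoter peak in that line, 0 lost it and 0 gained one, where 6.68% of all genes with a peak in either library lost it and 1.73% gained one. By size, IFIT5 and IRF7 were lower by at least 1.5-fold (14.6% of all genes), and ISG20 and IRF9 were higher (4.86%). In a window of 1000 bases to each side neither was higher by 1.5-fold, and the count was 0. The IFIT5 peak in sh-ANP32B, 362 bases wide, was near the smallest width of that list, 354 bases. The median log2 ratio of sh-ANP32B to NC was 0.08 over the 17 members, 6 of them below 0 and 11 above it, and 0.00 over all genes with a peak in both libraries.

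In MV4-11, 12 members had a promoter peak in at least 1 library. IFITM2, IRF1 and USP18 lost it, where 23.3% of all genes did, and IFI35 and GBP2 gained one, where 4.22% did. With these included, 4 of the 12 were lower by at least 1.5-fold, IFIH1 being the fourth, against 45.0% of all genes, and 2 were higher, against 7.28%. The median log2 ratio over the 7 members with a peak in both libraries was -0.04, against -0.27 for all genes. Once each library was scaled by its total bases under peaks, the median was 0.24 for the members and 0.01 for all genes. The members' share of lower promoters, below that of all genes here, rests on 12 genes with no replicate. With every annotated transcript start counted, 8 of 18 members were lower (44.4%), against 43.5% of all genes. The genes called also changed. IRF1 then had 1604 bases in NC and 614 in sh-ANP32B, USP18 1561 and 1232, and IFI35 1593 and 1024, so none of them was lost or gained. Those that lost the peak were ISG15, IFITM1, IFITM2 and RSAD2, and GBP2 still gained one.

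**Figure D5:**
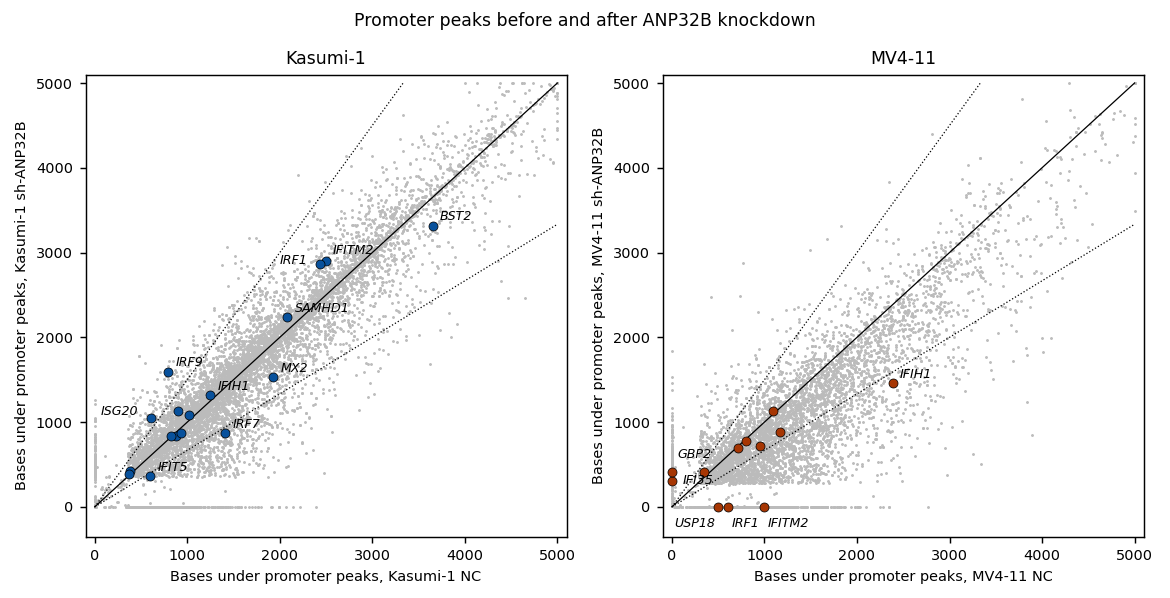
Bases under promoter peaks in NC (x axis) and sh-ANP32B (y axis) for all protein-coding genes (grey) and the members (coloured) in Kasumi-1 (left) and MV4-11 (right), with equality as a solid line and 1.5-fold as dotted lines. In MV4-11, IFITM2, IRF1 and USP18 lie on the x axis and IFI35 and GBP2 on the y axis.

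Over the gene body with 5 kb to each side, a peak was present at 20, 21, 20 and 17 of the 33 genes, against 58.1%, 56.7%, 51.2% and 44.9% of all genes. In Kasumi-1, 4 of 21 members were lower by at least 1.5-fold after knockdown, ISG15, IFIT5, RSAD2 and IRF7, against 11.0% of all genes. ISG15 had 4146 bases in NC and 2132 in sh-ANP32B, a 1.94-fold difference, most of it from the peak in the promoter window of its neighbour HES4, which went from 2951 to 1299 bases. The peak at the ISG15 start itself had 883 and 833 bases. RSAD2 had 1437 and 648, the peak it shares with the CMPK2 start. ISG20, IRF9 and XAF1 were higher, 3 of 21 against 6.17% of all genes.

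In MV4-11, 8 of 21 were lower over the gene body, against 41.1% of all genes. The 8 were ISG15, ISG20, IFIH1, IFIT2, IFITM1, IFITM2, IFITM3 and RSAD2. Once bases were scaled by each library's total, 5 were lower, against 31.3% of all genes. RSAD2 went from 913 bases to 0, the CMPK2 peak again, and the 544 bases that went to 0 for ISG15 are the peak in the HES4 promoter window. IFITM3 went from 793 to 356, and the value of 993 to 0 for IFITM1 and IFITM2 comes from 1 peak counted for both neighbours. GBP2 was higher, 1 of 21 against 8.38%. The median log2 ratio of members with bases in both libraries was 0.03 over 20 genes in Kasumi-1 and -0.37 over 16 genes in MV4-11, where all genes had 0.02 and -0.30.

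Between the lines, both Kasumi-1 values were above both MV4-11 values at 14 of the 19 members with a promoter peak, against 71.6% of all genes with one. The reverse held for IFIH1 and IFIT3, 2 of 19 against 5.99%. The count of 14 was near that background, and over the genome Kasumi-1 also covered more bases (32.7 and 33.7 Mb) than MV4-11 (27.9 and 23 Mb).

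The pathway around these genes was read from 99 other interferon genes. Of these, 59, 56, 51 and 44 were marked at the promoter, in the library order, beside 47.7%, 45.3%, 35.8% and 28.6% of all genes. None of the 7 interferon genes had a promoter peak in any library, whereas 5 of 6 receptor genes had one in each. IFNAR1 had 1319, 1202, 942 and 930 bases and IFNAR2 1563, 1292, 837 and 1152, so that both type I chains were marked in both lines. The gamma receptor chains IFNGR1 and IFNGR2 had 1004, 1365, 1309 and 567 bases and 4304, 4271, 3216 and 3815 bases.

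Of the kinases and STATs, 5, 4, 3 and 3 of 5 had a promoter peak. JAK1 had 528, 0, 518 and 499 bases, its peak being missing from the Kasumi-1 knockdown library. TYK2 had 1110, 1209, 0 and 0, so that MV4-11 had no peak in the promoter window of this receptor kinase. Of 6 other interferon regulatory factors, 4, 3, 3 and 3 had a peak. IRF3, the factor that starts interferon transcription, had 3116, 3418, 1046 and 1227, in a window that also holds the BCL2L12 start, 76 bases away. IRF8, a myeloid factor, had 357 in Kasumi-1 NC and 0 in the other 3 libraries. That value equals the smallest peak width in the Kasumi-1 NC list. Over the IRF8 gene body with 5 kb to each side, every library had a peak. The same measure found a peak at TYK2 in both MV4-11 libraries and at JAK1 in Kasumi-1 sh-ANP32B. Nucleic acid sensors and adaptors had a peak at 8, 9, 9 and 6 of 14, negative regulators at 5, 5, 6 and 5 of 6, and other induced genes at 32, 30, 25 and 22 of 55.

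After knockdown, 6 of 62 of these other genes lost the promoter peak in Kasumi-1 and 3 gained one, beside the 6.68% and 1.73% of all genes given above. In MV4-11, 11 of 55 lost it and 4 gained one, beside 23.3% and 4.22%. Those with the most bases were lost in MV4-11: PHF11 went from 2014 bases to 0, TLR9, a DNA sensor, from 955 to 0, CMPK2 from 913 to 0 (the peak counted above for RSAD2), RNF213 from 878 to 0, and MYD88, the adaptor of Toll-like receptors, from 766 to 0. TNFSF10, the death ligand TRAIL, went from 504 to 0 there, and LAP3, a peptidase, from 0 to 524. PARP12, an ADP-ribosyltransferase, had 605, 0, 0 and 460 bases, opposite directions in the lines. PLSCR1 was gained in Kasumi-1 with 543 bases. All of these are changes in called peaks of single libraries. Over the gene body with 5 kb to each side, MV4-11 sh-ANP32B still had a peak at PHF11, RNF213, MYD88 and TNFSF10. That library had none there at TLR9 and CMPK2. The start of ACAA1 lies 1534 bases from that of MYD88, inside the MYD88 promoter window.

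Marker genes were read with the same promoter window. Of 8 myeloid markers, 6, 6, 5 and 3 had a peak in the library order, and MPO, a granule enzyme of myeloid cells, had none in any library. The 6 T cell and the 5 epithelial markers had none. B cell markers had a peak at 2, 2, 1 and 1 of 6, and erythroid markers at 1, 1, 1 and 0 of 5. The myeloid count in MV4-11 was lower after knockdown, as was the total of bases under peaks, and the part of either in the members' lost peaks was not tested.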

How the data were processed

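H3K27ac was profiled by CUT&Tag in 4 libraries, 1 per cell line and group. The authors aligned reads to hg38 with Bowtie2, removed duplicates with Picard, merged replicates with samtools and called peaks with MACS2, per the study's methods. The submitters' processing notes name Bowtie2 2.4.4 and MACS3 3.0, so the caller differs between the sources. Whether IgG served as the control in peak calling is not stated. The deposited lists hold chromosome, start, end and length of each peak (positions counted from 1, widths in bases), with no height, p-value or depth. Because narrow and wide peaks count by their bases, a difference in depth or in the caller's minimum width (275 to 357 bases) or joining gap (276 to 358 bases) between the lists can change the values.

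Bases under peaks were counted within 2500 bases of each GENCODE release 44 canonical start, and over the gene body with 5000 bases to each side, for 20007 protein-coding genes (Python 3.11.15). With 1 library per group no test was run. A gene counted as lower or higher at 1.5-fold or more, among genes with a peak in at least 1 of the libraries compared. The main counts of members called are set beside the percentage of all genes called by the same rule. For the alternative settings, that percentage is given only for calls at every annotated start and for scaled gene bodies. Motif letters were sought in RefSeq promoters. The counting was tested on simulated peaks. Members, the pathway list and the marker lists were chosen with earlier results of these data known. All members were named. Of the other pathway genes, named ones were IFNAR1, IFNAR2, IFNGR1, IFNGR2, JAK1, TYK2, IRF3, IRF8 and the 10 with most bases among those that lost or gained the peak, and 1 more is not reported here. Sequences were printed for at most 8 members with ISRE letters, those whose peak differed among libraries first. Alternatives changed the window, start, fold, least width, joining gap and scaling. Peaks on other sequences than chromosomes 1 to 22, X and Y were not used.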

Additional observations from a re-analysis of the deposited data

Results flagged for a closer look

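Of the 10 members with a promoter peak in both lines, 9 had covered bases that moved in opposite directions with knockdown in Kasumi-1 and MV4-11. Any difference in bases counted here, down to a 1.02-fold one for SAMHD1 in MV4-11. None of the 9 passed 1.5-fold in both lines. The shares of all genes are given below for each direction. These differences between the lines were not tested, with 1 library per line and group. In 7 of them the knockdown library had more bases than NC in Kasumi-1 and fewer in MV4-11, as did 41.2% of all genes with a promoter peak in both lines. The difference of sh-ANP32B minus NC was 438 bases in Kasumi-1 and -285 in MV4-11 for ISG20, 64 and -926 for IFIH1, and 409 and -993 for IFITM2. It was 428 and -610 for IRF1, 803 and -232 for IRF9, 233 and -498 for USP18, and 153 and -12 for SAMHD1. MX2, with -400 and 42, and IRF7, with -544 and 69, were the reverse, as were 9.45% of all genes. For IRF7 in MV4-11, the start was covered by the NC peak but not by the sh-ANP32B peak. Over all genes with a peak in both libraries of a line, 4581 were higher and 4192 lower in Kasumi-1, and 1294 higher and 4092 lower in MV4-11. The medians of the log2 ratio over members were 0.08 in Kasumi-1 and -0.04 in MV4-11 for promoters, where all genes had 0.00 and -0.27, and 0.03 and -0.37 for the gene body with 5 kb to each side, where all genes had 0.02 and -0.30. Scaled by each library's total, the members' medians were 0.03 and 0.24 for promoters and -0.01 and -0.09 for gene bodies, and the lines then had the same sign in each.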

How the results depend on the processing

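Depth is unknown, so a peak missing from a list may lie under the caller's threshold rather than be absent. Of 164 values recomputed under alternatives, 131 stayed within 1.5 times. The 33 that did not were counts of members, and the cause was not tested except where the setting itself removes peaks or raises the fold. With only peaks of at least 1000 bases, 8, 9, 2 and 2 members had a promoter peak (Kasumi-1 NC and sh-ANP32B, MV4-11 NC and sh-ANP32B), in Kasumi-1 1 lost it, 2 gained it and 1 was lower, and in MV4-11 0 lost it, 0 gained it, 1 was lower and 0 higher, with 5 lower and 0 higher over the gene body, while Kasumi-1 was above at 6 and MV4-11 at 1. With every annotated start, 17 and 14 members had a peak in MV4-11, and 1 gained it in each line. In Kasumi-1 4 of 21 were then lower, against 13.6% of all genes. In MV4-11 8 of 18 were lower, against 43.5%, and 1 higher, against 8.06%. With a window of 1000 bases, 0 were higher in Kasumi-1, and 1 gained the peak and 1 was higher in MV4-11. At 2-fold, 0 promoters and 1 gene body were lower and 1 promoter higher in Kasumi-1, and 5 gene bodies were lower in MV4-11. Joining peaks up to 1000 bases apart gave 5 higher gene bodies in Kasumi-1. A common least width and gap of 358 bases gave 2 higher in MV4-11, and scaling by the total gave 5 lower, against 31.3% of all genes. Counting from the RefSeq start farthest downstream, an alternative chosen after seeing the data, MV4-11 was above at 1. Where no share of all genes stands beside a count here, the count shows only how the setting moves the members' number. No replicate block applies, since the values come from no test and the labels carry no replicate numbers. A fit with NC and sh-ANP32B paired by cell line was not run.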
